A study of Mus musculus with 6 samples.

Results

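Connexin transcripts were followed in NIH3T3 cells, an established line of mouse embryo fibroblasts, across 6 RNA-seq libraries. The genes described are 6 of the 35275 in the deposited count table, taken by name: Gja1, Gja4, Gja5, Gjb2, Gjb5 and Gjc1. The members were chosen by gene name with the fold changes between these groups already known, Gjb5 being selected on its large log2 fold change, so their levels and fold changes are given as a description without p-values. The 3 libraries labelled 3T3NgBR came from NIH3T3 cells that carry a pIRES plasmid for HA-tagged NgBR after stable transfection and G418 selection, and the 3 wild-type libraries from NIH3T3 cells with no modification given in their labels. NgBR, the Nogo-B receptor, is the product of Nus1. Both lines grew in DMEM with 10% calf serum. Nothing in the labels gives an empty-plasmid control, the number of clones in the transfected line or whether replicates were separate cultures, so the spread between libraries may be technical. Selection, clone and plasmid effects cannot be told apart from an effect of NgBR.

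Connexins are membrane proteins that span the bilayer several times and ring together into a hemichannel. A hemichannel of one cell docks with that of its neighbour to form a gap junction channel, through which ions and small metabolites pass between the cells. Gja1 encodes the connexin known as the main one of fibroblasts, while most beta-type connexins (the Gjb genes) are best known from epithelia such as skin. Gjb5 was described in mouse in placental trophoblast and skin.

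Total counts were between 7369961 and 10358381 in the libraries labelled 3T3NgBR and between 29515072 and 35511769 in wild type, so that mean depth was 3.50-fold greater in wild type. The first principal component of log2 CPM (46.5% of the variance) separated the groups, and the second (28.6%) set library 2 of each group apart from the other 4. Across 12589 genes, deviations of log2 CPM from the 6-library mean were correlated with exonic length (Spearman rho) at 0.0684, 0.347 and -0.467 in libraries 1 to 3 labelled 3T3NgBR and at -0.226, 0.242 and -0.299 in wild-type libraries 1 to 3. Levels in CPM (a gene's counts scaled to its library's total, after edgeR's TMM adjustment of the totals for composition) did not follow the label for Nus1, with 184, 185 and 165 CPM in the libraries labelled 3T3NgBR against 212, 187 and 233 CPM in wild type (-0.24 on the log2 scale with SE 0.21, adjusted p = 0.786 by edgeR), and whether transgene reads fall on this gene is unknown. All 8 fibroblast markers examined were measured, among them Col1a1, Col1a2, Fn1 and Vim at means of 3770 to 8296 CPM under the label and 2908 to 8538 CPM in wild type. Of the 8, 3 had a positive log2 fold change and 0 had an edgeR adjusted p under 0.05, against 3.39% of all tested genes. Group ranges were separate for Col1a1, at 4562 CPM under the label and 3031 CPM in wild type. They were also separate for Pdgfra, in the other direction, at 644 and 951 CPM. Separate ranges were found for 18.6% of all tested genes.

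The members lie on 5 chromosomes, and only Gjb5 and Gja4 share one. Gjb5 (ENSMUSG00000042357) is at mm10 chr4:127354809-127358181 and Gja4 at chr4:127311421-127314039, both on the minus strand, with the start of Gja4 44142 bases downstream of that of Gjb5. Gja1 is at chr10:56377330-56402513 (plus strand), Gja5 at chr3:96904693-97077416 (plus strand), Gjb2 at chr14:57098600-57104702 (minus strand) and Gjc1 at chr11:102799579-102819700 (minus strand). Gjb2 has Gjb6 and Gja3 within 100 kb, connexins with 0 counts over the 6 libraries.

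Because connexins are paralogs, the members' sequences were compared to see how far reads could be shared between them. Coding sequences of Gjb5 were identical to those of Gja1 at 67.3% of 804 aligned bases, to those of Gjc1 at 68.3% of 805 and to those of Gja5 at 71.8% of 791. The longest stretch that Gjb5 shared letter for letter with another member's principal transcript was 18 bases, in Gjb2, which had no counts. Among all pairs of members the longest such run was 26 bases, between Gja1 and Gja4. The sources used here do not give the read length, and reads longer than these runs carry letters that separate the members.

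The bases before the start of Gjb5 and of Gja1 are shown from RefSeq's promoter table (GRCm38.p6, the mm10 assembly). For these members, CPM was higher in every library labelled 3T3NgBR than in any wild-type library, as given below. Gjb5 is given at chr4:127358182-127358414 on the minus strand and Gja1 at chr10:56377050-56377299 on the plus strand, with motif matches in capitals. Bases of the window that lie within the GENCODE gene are not shown for Gjb5.
Gjb5: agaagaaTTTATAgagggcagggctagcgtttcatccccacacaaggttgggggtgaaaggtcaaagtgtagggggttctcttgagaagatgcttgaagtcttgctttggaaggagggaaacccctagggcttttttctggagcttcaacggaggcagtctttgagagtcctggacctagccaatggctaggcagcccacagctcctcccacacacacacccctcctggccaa
Gja1: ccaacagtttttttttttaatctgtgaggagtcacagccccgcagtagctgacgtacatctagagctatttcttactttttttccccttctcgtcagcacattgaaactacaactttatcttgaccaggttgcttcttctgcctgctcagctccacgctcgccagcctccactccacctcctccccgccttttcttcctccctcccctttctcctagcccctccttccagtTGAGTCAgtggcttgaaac
Motifs were searched on both strands in the 250 bases before the start, and none of the matches given here overlapped: the TATA box as TATAAA, the GC box as GGGCGG, the AP-1 site as TGANTCA and the E box as CACGTG. Gjb5 had 1 match, a TATA box letter run on the opposite strand starting 243 bases upstream, and 12.4% of 32817 promoters hold that motif. Gja1 had 1 match, an AP-1 run starting 19 bases upstream, a motif in 6.75% of promoters. The GC box stood in 32.7% and the E box in 6.02% of promoters, and in neither of these windows. Promoters of Gja4, Gja5 and Gjb2 were also in the table, with 1, 1 and 2 GC boxes. These are matches of letters and say nothing of binding. Gjc1 was not matched to an entry.

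Gjb5 was close to silent in wild-type NIH3T3 cells and clearly measured in the line labelled 3T3NgBR. Its counts were 74, 90 and 157 in the libraries labelled 3T3NgBR against 27, 3 and 29 in the deeper wild-type libraries. These correspond to 10.4, 8.90 and 15.0 CPM under the label and 0.773, 0.102 and 0.873 CPM in wild type. The lowest library labelled 3T3NgBR stood about an order of magnitude above the highest wild-type library, and the groups did not overlap. Gjb5 averaged 11.4 ± 3.18 CPM under the label and 0.583 ± 0.420 CPM in wild type (SD, n = 3 each). That is 19.2-fold, or 4.26 on the log2 scale (SE 0.59), with a 95% interval from 2.93 to 5.60. Wild-type library 2 rested on 3 counts, and without it the log2 fold change was 3.79. With every library thinned to the depth of the shallowest it was 4.56.

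Gja1, the most abundant member, was higher under the label as well, by a much smaller factor. It was measured at 164, 129 and 143 CPM in the libraries labelled 3T3NgBR, against 54.0, 47.5 and 79.0 CPM in wild type. Every library labelled 3T3NgBR was above every wild-type library. Gja1 averaged 145 ± 17.4 CPM under the label and 60.2 ± 16.6 CPM in wild type (SD, n = 3 each). The fitted ratio was 2.41-fold, or 1.27 on the log2 scale (SE 0.25), with a 95% interval from 0.70 to 1.84. This gene was no longer called without library 1 or 3 labelled 3T3NgBR or without wild-type library 1 or 2, where the log2 fold changes were 1.17, 1.29, 1.21 and 1.13.

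Gjc1, which encodes a connexin of the embryonic heart and of smooth muscle, was the other member with substantial counts and differed little. It stood at 39.3, 25.4 and 40.4 CPM in the libraries labelled 3T3NgBR and at 29.2, 29.2 and 36.6 CPM in wild type. Library 2 labelled 3T3NgBR was the lowest of the 6 and the groups overlapped. Gjc1 averaged 35.0 ± 8.35 CPM under the label and 31.7 ± 4.26 CPM in wild type (SD, n = 3 each), 0.15 apart on the log2 scale (SE 0.25). Its 95% interval was -0.41 to 0.70, and differences between the members' fold changes were not tested.

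The remaining members were at or near 0 in both lines. Gja4, a connexin of arterial endothelium on the same chromosome as Gjb5, had 1 count over the 3 libraries labelled 3T3NgBR, in library 3, and 4 counts over wild type. The ratio of these rates was 0.882, with an exact 95% counting interval of 0.0179 to 8.91. Gja5, known from endothelium and the atria of the heart, had 0 counts under the label and 1 in wild-type library 1. Gjb2, a connexin of the inner ear, liver and skin, had 0 counts in all 6 libraries. A count of 0 over a group allows a level of up to 0.108 CPM under the label and 0.0307 CPM in wild type (3 counts over the group). Such intervals and limits cover counting error only.

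Of the 6 members, 3 passed the filter on low counts and 2 of these, Gjb5 and Gja1, were called higher in the libraries labelled 3T3NgBR (edgeR, Benjamini-Hochberg adjusted p under 0.05). Over all 12651 tested genes 2.04% were called higher, 1.35% lower and 3.39% in either direction. Separate group ranges of CPM were found for 2 of the 3 tested members, both with the label above, and for 18.6% of all tested genes (9.21% above and 9.37% below). Since the members were chosen with this contrast in view, nothing is read from these counts. In bulk RNA, a change in the number of cells that express a gene and a change in RNA per cell cannot be told apart.

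**Figure D1:**
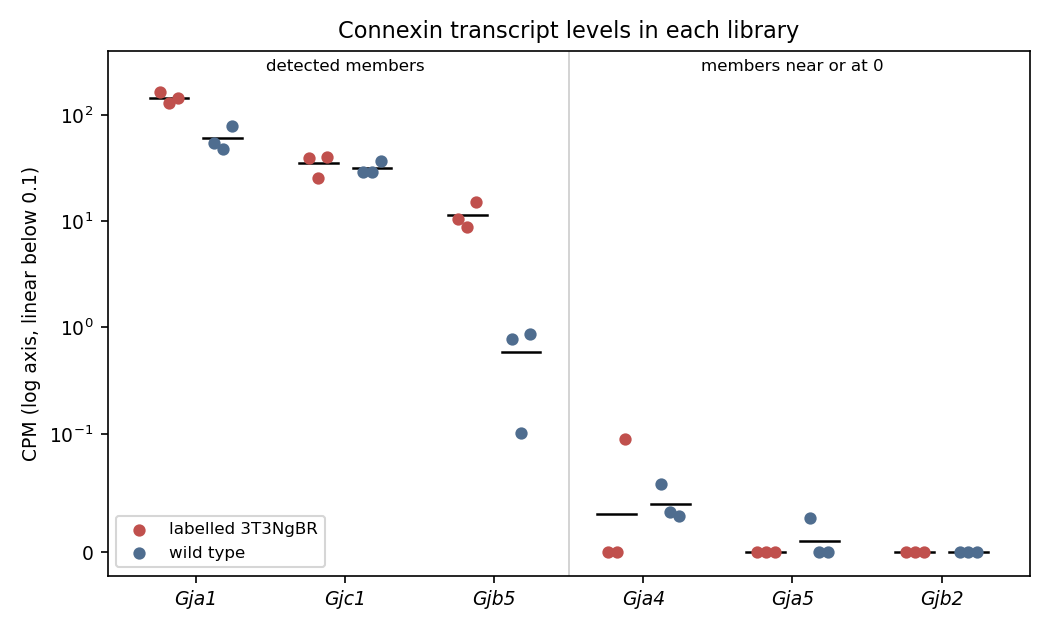
CPM of the 6 connexin genes in each library on a log axis that is linear below 0.1, with points for libraries, black bars for means, red for the libraries labelled 3T3NgBR and blue for wild type (n = 3 each). Gjb5 lies clear of its wild-type values, Gja1 is higher by 2.41-fold, Gjc1 overlaps, and Gja4, Gja5 and Gjb2 are at or near 0.

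**Figure D2:**
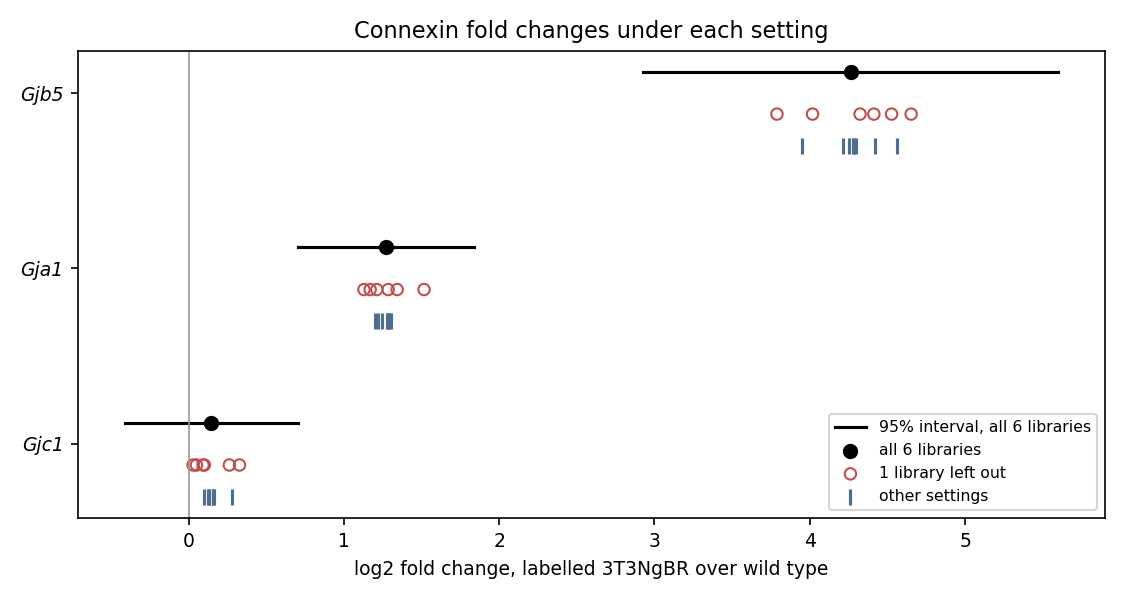
Log2 fold change (labelled 3T3NgBR over wild type) of the 3 tested connexin genes, with the estimate from all 6 libraries (black, bar for the 95% interval), estimates with 1 library left out (open circles) and under other settings (ticks). All of these estimates for Gjb5 lie between 3.79 and 4.65, those of Gja1 between 1.13 and 1.52 and those of Gjc1 between 0.03 and 0.33.

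Position was not used in choosing the members, and values of 2 genes within 250 kb of Gjb5 are given without a count over its neighbourhood. Tmem35b, 234490 bases downstream of the start of Gjb5, was at 6.89 CPM under the label and 4.53 CPM in wild type (log2 fold change 0.61, edgeR adjusted p = 0.458). Dlgap3, which encodes a postsynaptic scaffold protein and starts 188977 bases downstream, was below the filter, with 6, 2 and 2 counts in the libraries labelled 3T3NgBR and 0 in each wild-type library.

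Within groups, library 2 was the lowest for Gjb5 in both lines. In library 2 labelled 3T3NgBR, log2 CPM (prior count 2) deviated from the group mean by -0.32 for Gjb5, -0.16 for Gja1 and -0.43 for Gjc1. In wild-type library 2 it deviated by -1.48 for Gjb5, -0.31 for Gja1 and -0.11 for Gjc1. These libraries also had the highest length correlation of their groups, 0.347 under the label and 0.242 in wild type. The largest in absolute value was -0.467, in library 3 labelled 3T3NgBR, where Gjb5 was highest. The part of the length trend in these deviations was not tested.

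Likeness to the members was measured as Pearson's r of log2 CPM over the 6 libraries, across 11086 protein-coding genes that averaged 1 CPM or more. Genes close to Gjb5 in this measure included Snx20 (r = 0.995), Pgm2 (0.994), 4931428F04Rik (0.994) and Plekha6 (0.992), and 101 genes exceeded 0.95. Of these 4, Snx20, Pgm2 and Plekha6 were called higher, with log2 fold changes of 3.36, 1.07 and 3.73, and 4931428F04Rik, at 0.84, was not called. The 5 genes most like Gja1 were Nkx2-1 (0.986), Pmepa1 (0.986), Cacna1i (0.985), Kcnn4 (0.983) and Gprc5a (0.981). Gja1 and Gjb5 had an r of 0.961, and Gjc1 and Gjb5 of 0.375. These are descriptions over 6 libraries that share the split between the groups and the depth gap.

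The members' levels were then compared per length, because longer transcripts collect more counts. The lengths used were the union of all annotated exons and the length of the principal transcript, and they differ for Gja1 (10257 against 3182 bases) and Gjc1 (5003 against 2314 bases). Per kb of exonic union, Gja1 had 14.2 ± 1.70, Gjc1 7.01 ± 1.67 and Gjb5 6.64 ± 1.85 CPM per kb under the label (SD, n = 3). In wild type Gjc1 had 6.33 ± 0.852, Gja1 5.87 ± 1.62 and Gjb5 0.339 ± 0.244 CPM per kb (SD, n = 3). Gjc1 and Gjb5 under the label, and Gjc1 and Gja1 in wild type, differed by less than their spread. With the principal transcript Gja1 came first in both lines, at 45.7 ± 5.47 CPM per kb under the label and 18.9 ± 5.22 CPM per kb in wild type (SD, n = 3 each). Gjc1 followed at 15.1 ± 3.61 CPM per kb under the label and 13.7 ± 1.84 CPM per kb in wild type, above Gjb5 in both.

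Among the 6 members alone, Gjb5 made up 20.2%, 22.6% and 28.3% of summed counts per kb of exonic union in the libraries labelled 3T3NgBR, against 3.88%, 0.559% and 3.27% in wild type. Gjc1 made up 24.9 ± 2.34% under the label and 50.9 ± 4.16% in wild type, while Gja1 held 51.3 ± 5.33% under the label and 46.3 ± 2.92% in wild type (SD, n = 3 each). The drop in the share of Gjc1 stands beside an almost equal level of its own, since shares add up to a fixed total. With principal transcript lengths Gjb5 held 9.82% under the label and 0.98% in wild type. Gjc1 then held 22.2% under the label against 42.0% in wild type, and Gja1 67.9% against 56.9%.

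**Figure D3:**
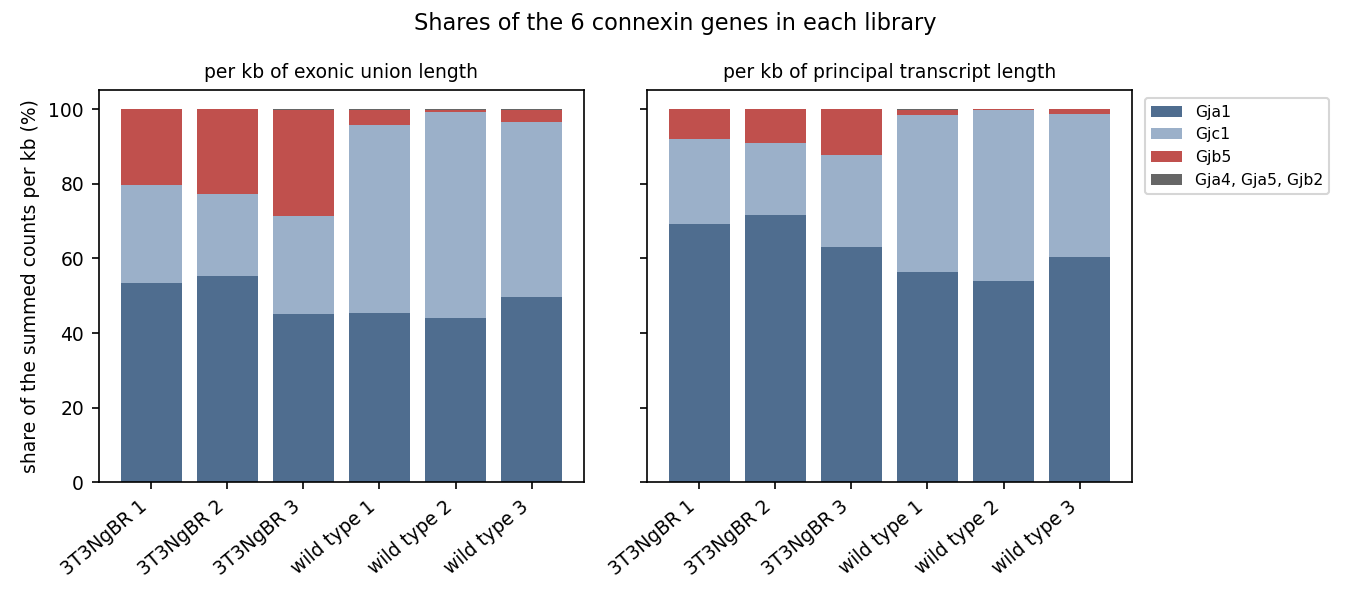
Share of each of the 6 connexin genes in their summed counts per kb in each library, in percent, per kb of exonic union (left) and of principal transcript (right), with libraries labelled 3T3NgBR left of wild type. Gjb5 fills 20.2% to 28.3% of the bars under the label and 0.559% to 3.88% in wild type by exonic union, and Gja4, Gja5 and Gjb2 are too small to see.

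Of 10 further connexin genes examined, all had fewer than 10 counts over the 6 libraries and 7 had 0, among them Gjb1 and Gjb6. The pannexins, which form related membrane channels, had 0 counts under the label and 1 in wild type, at Panx1.

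Genes whose products carry, modify or control connexins were read from the same fit. Of 12 tested scaffold and traffic genes, 0 were called by edgeR or DESeq2, and their median log2 fold change was 0.07, beside -0.01 for all tested genes. Nedd4, a ubiquitin ligase that acts on the Gja1 protein, was at 2061 ± 491 CPM under the label and 1896 ± 154 CPM in wild type. Cav1, the caveolin that binds it, was at 798 ± 31.6 CPM under the label and 513 ± 120 CPM in wild type (SD, n = 3 each, log2 fold change 0.64, edgeR adjusted p = 0.416). Cav1 and Nov, a secreted partner at 2.48 and 5.15 CPM under the label and in wild type, were the 2 with an unadjusted p under 0.05. Nov was named after its values were seen, as were Tbx2 and Cdh2 below.

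Of 9 tested kinases that act on connexins, 0 were called by edgeR or DESeq2 and 0 had an unadjusted p under 0.05, with a median log2 fold change of 0.09. Akt1 was the most abundant, at 247 CPM under the label and 283 CPM in wild type (log2 fold change -0.19, edgeR adjusted p = 0.913). Of 10 tested transcription factors known to act on connexin genes, 0 were called by either tool and 1, Tbx2, had an unadjusted p under 0.05, at 0.397 CPM under the label and 1.28 CPM in wild type (log2 fold change -1.68, edgeR adjusted p = 0.159). Tbx2 is known as a repressor of Gja1, and its values rest on 11 counts under the label and 126 in wild type. Tbx3, of the same list and also named after its values were seen, was more abundant. It was at 67.2 CPM under the label and 61.0 CPM in wild type (log2 fold change 0.14, edgeR adjusted p = 0.947). The part of either gene in the level of Gja1 was not tested. Sp1 was at 228 CPM under the label and 185 CPM in wild type, and Jun, a subunit of AP-1, at 176 and 158 CPM in the same groups. The median log2 fold change of these regulators was 0.15.

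Gap junctions form where cadherins already hold cells together. Of 6 tested adherens junction genes, 0 were called by edgeR or DESeq2, with a median log2 fold change of 0.13. Ctnnb1 and Ctnna1, the beta and alpha catenins, had log2 fold changes of 0.17 and 0.09. Cdh2, N-cadherin, had an unadjusted p under 0.05, at 134 CPM under the label and 86.1 CPM in wild type (log2 fold change 0.64, edgeR adjusted p = 0.250).

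**Figure D4:**
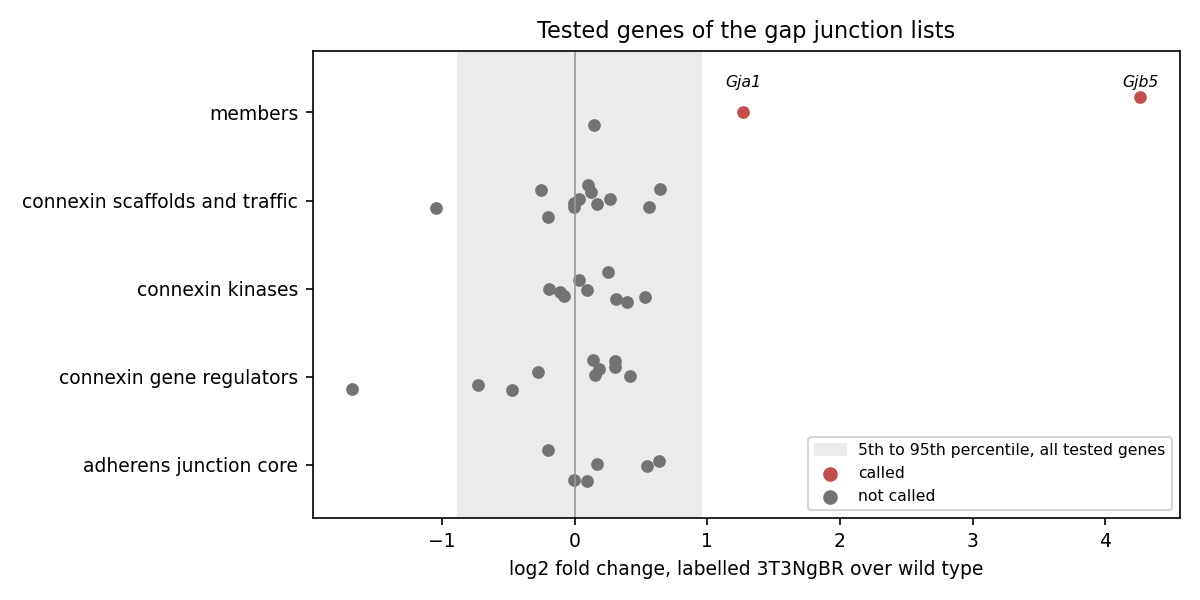
Log2 fold changes (labelled 3T3NgBR over wild type) of the tested genes of 5 gap junction lists, with called genes in red, others in grey and the band from the 5th to the 95th percentile of all tested genes (-0.88 to 0.95) shaded. The points right of the band are Gjb5 and Gja1, and the points left of it are Nov and Tbx2, which were not called.

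Markers of the other cells in which these connexins are known were read beside the results. The 12 epithelial markers summed to between 1.19 and 2.95 CPM in the libraries labelled 3T3NgBR and between 0.778 and 1.26 CPM in wild type, with overlap. Epcam, Krt18 and Cldn4 had 0 counts in all 6 libraries. Cdh1, below the filter, had 15 counts in each group, at means of 0.586 CPM under the label and 0.150 CPM in wild type. The ratio of its pooled rates was 3.53 (exact 95% counting interval 1.61 to 7.74), and its group ranges overlapped. Krt19 had 3 counts under the label and 0 in wild type, while Cldn7 and Esrp1 each had 0 under the label and 9 in wild type. Krt14, a basal keratin, was the only one tested, at 1.21 ± 0.636 CPM under the label and 0.358 ± 0.236 CPM in wild type (SD, n = 3 each, log2 fold change 1.71, edgeR adjusted p = 0.303). Of 8 trophoblast markers, 6 had 0 counts in all libraries, and their sum did not exceed 0.281 CPM in any library. The 6 endothelial markers summed to between 0.842 and 2.20 CPM under the label and between 0.643 and 0.945 CPM in wild type. All were below the filter, and those given here were named after their values were seen. Cdh5 had 15 counts under the label and 13 in wild type, a pooled ratio of 4.07 (exact 95% counting interval 1.81 to 9.29), with separate group ranges. Pecam1 had a ratio of 2.86 (1.41 to 5.68), and its ranges overlapped. The ratios of Kdr, Tie1 and Tek were 0.705, 0.882 and 0.882. The 6 leukocyte markers summed to between 2.37 and 3.44 CPM under the label and between 1.42 and 3.52 CPM in wild type, mostly from Cd68. Gjb5, chosen for its fold change, was at 8.90 to 15.0 CPM in the libraries labelled 3T3NgBR. CPM are not scaled for length, so these values do not compare as levels with the marker sums. The part of cells of other types in the connexin results was not tested.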

How the data were processed

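The deposited table held raw counts per gene for 6 libraries, whole numbers with no normalization. The submitters' processing notes name build mm10, featureCounts 1.5.0-p3, HISAT2 2.0.5 and DESeq2. The sources used here do not give the annotation release, strand setting, filters or read length, so reads of overlapping genes may be assigned to either. Per the labels' protocols, 1.5 micrograms of total RNA per sample entered a SMARTer library preparation. No column of other samples was in the table, and every row had a mouse Ensembl identifier, 97.8% of them in GENCODE M21 (mm10), which gave positions and lengths.

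Genes were tested with edgeR 4.0.16 (R 4.3.3), by the quasi-likelihood test with TMM factors, filterByExpr and no covariate, and called at an adjusted p under 0.05 over all tested genes. The steps were tested on simulated data. No libraries matched within counting noise. Same-numbered libraries deviated together at r = 0.0147, 0.341 and 0.434 for numbers 1 to 3, and libraries of unlike number at -0.40 to 0.19. The labels do not state pairing, so numbers were not taken as pairs in the main fit. Log2 CPM used a prior count of 2. Named were the members, from each list up to 4 called genes at 1 CPM or more (where none was called, the 2 most abundant, fewer where not reported), markers of at least 1 CPM, neighbours, and genes among the 5 most like Gjb5 and Gja1. The alternatives were DESeq2 1.42.0, other factors and filters, thinning to the shallowest library, a replicate block and each library left out. Principal transcript lengths and leaving out both libraries numbered 2 were added after the data were seen. The members and lists were chosen with earlier results of these data known. Some genes of the lists and neighbourhoods are not reported here.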

Additional observations from a re-analysis of the deposited data

How the results depend on the processing

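The fold changes of Gjb5, Gja1 and Gjc1 kept their direction in all 14 alternatives, and Gjb5 also kept its call. Since Gjb5 was selected on its fold change in these same libraries, nothing is read from the kept call. Leaving out 1 library at a time gave log2 fold changes of 3.79 to 4.65 for Gjb5, 1.13 to 1.52 for Gja1 and 0.03 to 0.33 for Gjc1. Gja1 lost its call in 4 of these 6, so that 1 to 2 members were called. Of the reported genes of the other gap junction lists, 0 were called in any of these settings. Over all genes, 429 were called, against 719 with DESeq2, 719 with the replicate block, 688 without a filter and 225 to 374 with 1 library left out. The replicate block kept 428 of the 429 and changed no call of a member. Libraries numbered 2 and 3 deviated together at r = 0.341 and 0.434, but those numbered 1 at 0.0147 only. The labels state no pairing, so the numbers are not known to pair the libraries. The log2 fold change of Nedd4 was between -0.083 (without library 2 labelled 3T3NgBR) and 0.27 (without library 3) with 1 library left out, and -0.15 without both libraries numbered 2. The cause of these changes was not tested.

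Shares among the members depend on the length used. Without division by length they were 75.9% and 64.6% for Gja1, 5.96% and 0.60% for Gjb5 and 18.1% and 34.7% for Gjc1 under the label and in wild type. Principal transcripts gave 67.9% and 56.9% for Gja1, 9.82% for Gjb5 under the label, and 22.2% and 42.0% for Gjc1. With 1 library left out they ranged from 49.4% to 54.3% and 44.7% to 47.5% for Gja1, 21.4% to 25.5% and 1.91% to 3.57% for Gjb5, and 24.2% to 26.3% and 48.7% to 52.8% for Gjc1. Depth limits the low members: 1 count equals 0.0955 to 0.140 CPM under the label and 0.0286 to 0.0338 CPM in wild type.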
